A study of Mus musculus with 48 samples.

Results

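The genes described are 9 enzymes of the tricarboxylic acid (TCA) cycle and of the malate-aspartate shuttle, taken by name from a table of 55376 genes counted in nascent RNA of mouse embryonic stem cells. They are Mdh1, Mdh2, Cs, Idh2, Idh3a, Ogdh, Fh1, Got1 and Got2, and all 9 passed the filter on low counts described below. The table holds 8 libraries, 2 in each of 4 groups. One group was treated for 3 h with 10 µM BRM014, which inhibits the ATPase BRG1 of SWI/SNF chromatin remodelling complexes, and its control was treated for 3 h with DMSO. Another group received a lentivirus with an shRNA against Chd4, the ATPase of the NuRD remodelling complex, and its control received a lentivirus with a scrambled shRNA. Cells of both shRNA groups spent 24 h in 1.5 µg/mL puromycin, which the BRM014 and DMSO cells did not receive. All cells were of the line TCF2.2, labelled with strain C57BL/6 and grown in serum-free 2i medium, which keeps stem cells in a naive state through inhibition of GSK3 and MEK. New RNA was labelled in the cells for 5 min with 500 µM 4-thiouridine, biotinylated and captured on streptavidin, after synthetic ERCC RNA had been added in proportion to cell number. The labels call the libraries of a group biological duplicates.

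In the TCA cycle, acetyl groups from pyruvate and other fuels are oxidised in the mitochondrial matrix, and the electrons pass as NADH and FADH2 to the respiratory chain. The malate-aspartate shuttle carries electrons of cytosolic NADH into the matrix through a cytosolic and a mitochondrial malate dehydrogenase, a cytosolic and a mitochondrial aspartate aminotransferase, and 2-oxoglutarate and aspartate-glutamate carriers of the inner membrane. In naive mouse stem cells the cycle also supplies 2-oxoglutarate, a cosubstrate of enzymes that remove methyl groups from histones and DNA.

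Cs encodes citrate synthase, which opens the cycle, and Idh2 the mitochondrial NADP-dependent isocitrate dehydrogenase. Idh3a encodes the catalytic subunit of the NAD-dependent isocitrate dehydrogenase, Ogdh the first subunit of the 2-oxoglutarate dehydrogenase complex, and Fh1 fumarate hydratase. Mdh2 and Got2 encode the mitochondrial malate dehydrogenase and aspartate aminotransferase, and Mdh1 and Got1 their cytosolic counterparts. The genes lie on separate chromosomes except Mdh1 (chr11:21556692-21572367, minus strand) and Ogdh (chr11:6291633-6356642, plus strand), in the mm10 coordinates of the count table. Fh1 lies at chr1:175600374-175625635 on the minus strand and Mdh2 at chr5:135778480-135790398 on the plus strand. The other loci are Cs at chr10:128337734-128362479 and Idh3a at chr9:54586334-54604661 on the plus strand, with Idh2 at chr7:80094846-80115392, Got1 at chr19:43499752-43524605 and Got2 at chr8:95864134-95888547 on the minus strand. Ogdh spans 65.01 kb, and the other 8 genes span between 11.92 kb (Mdh2) and 25.26 kb (Fh1).

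The promoter windows shown are those of the pair of genes with the lowest values in the libraries labelled Chd4 shRNA against scrambled shRNA (Mdh1 and Fh1), of the gene that went the other way (Ogdh) and of the mitochondrial counterpart of Mdh1 (Mdh2). Each holds 300 bases of RefSeq sequence on build GRCm38.p6, from 250 bases before to 50 bases after the RefSeq gene start, written 5′ to 3′ on the gene's strand. For Ogdh the window nearest to the start in the count table is shown. Capitals mark the letters CCAAT or their reverse complement ATTGG, and GGGCGG or its reverse complement CCGCCC. The windows lie at chr11:21571885-21572184 (Mdh1, minus strand), chr1:175625586-175625885 (Fh1, minus strand), chr11:6291409-6291708 (Ogdh, plus strand) and chr5:135778399-135778698 (Mdh2, plus strand).
Mdh1: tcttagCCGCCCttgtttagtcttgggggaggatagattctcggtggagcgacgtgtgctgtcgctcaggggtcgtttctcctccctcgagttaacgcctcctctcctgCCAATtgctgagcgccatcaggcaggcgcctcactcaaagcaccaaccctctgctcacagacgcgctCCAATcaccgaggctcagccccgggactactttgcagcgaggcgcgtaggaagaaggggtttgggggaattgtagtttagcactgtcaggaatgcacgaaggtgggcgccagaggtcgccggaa
Fh1: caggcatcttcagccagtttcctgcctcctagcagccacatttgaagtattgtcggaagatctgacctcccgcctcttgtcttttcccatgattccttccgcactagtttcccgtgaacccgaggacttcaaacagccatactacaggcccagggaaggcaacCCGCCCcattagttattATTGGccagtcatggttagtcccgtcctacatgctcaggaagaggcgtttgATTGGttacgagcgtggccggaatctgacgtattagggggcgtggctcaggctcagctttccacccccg
Ogdh: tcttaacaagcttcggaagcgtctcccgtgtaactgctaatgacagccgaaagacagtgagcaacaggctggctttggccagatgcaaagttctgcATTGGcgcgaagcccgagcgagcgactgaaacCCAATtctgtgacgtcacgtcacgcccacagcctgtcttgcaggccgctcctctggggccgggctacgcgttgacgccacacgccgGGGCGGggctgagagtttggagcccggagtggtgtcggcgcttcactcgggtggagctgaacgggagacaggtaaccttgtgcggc
Mdh2: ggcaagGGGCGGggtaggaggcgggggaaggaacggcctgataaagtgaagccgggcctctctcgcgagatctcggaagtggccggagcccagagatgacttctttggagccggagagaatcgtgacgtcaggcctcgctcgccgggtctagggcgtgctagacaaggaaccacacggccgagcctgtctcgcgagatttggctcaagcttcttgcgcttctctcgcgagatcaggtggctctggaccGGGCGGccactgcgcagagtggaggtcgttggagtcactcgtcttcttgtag

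Windows were matched for 8 of the 9 genes, all but Idh3a. For the 8272 expressed genes described below, 4521 windows were matched, and the shares given here leave out the other expressed genes. CCAAT on either strand was in 6 of the 8 windows (Mdh1, Cs, Idh2, Ogdh, Fh1 and Got1), with 6 matches in that of Got1, and in 42.71% of the 4521 windows of expressed genes. GGGCGG on either strand was in 6 of the 8 (all but Got1 and Got2), beside 67.06% of the expressed windows. TGACGTCA was in the windows of Mdh2 and Ogdh, beside 3.65% of the expressed windows. TGCGCA was in those of Mdh2 and Got2 (17.81% of expressed windows), TATAAA in that of Got2 (6.835%) and CACGTG in 0 of 8 (11.44%). None of these motifs contains another, and a match is a description of the letters. The median GC content was 59.67% in the 8 windows and 60.67% in the expressed ones. Both Mdh1 and Ogdh hold CCAAT and GGGCGG, though their values below differ in direction.

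Gene counts summed to 12977098 and 14582377 in the BRM014 libraries, 17128981 and 16813866 in the DMSO libraries, 7461362 and 6982354 in the libraries labelled Chd4 shRNA and 12026026 and 11298835 in the scrambled shRNA libraries. The libraries labelled Chd4 shRNA stood apart before any gene was compared. Background, measured as counts per kb of exon over 1434 olfactory and vomeronasal receptor genes, made up 11.94% and 13.57% of their gene counts, against 1.447% to 2.383% in the other 6 libraries. Spread by exon length, it corresponds to 4.871% (Mdh2) to 25.03% (Idh3a) of a gene's count in the libraries labelled Chd4 shRNA and to at most 3.36% elsewhere, in both cases over the 9 genes. Counts of Chd4 itself, the targeted gene, were 730 and 760 for the libraries labelled Chd4 shRNA, against 806 and 618 counts in the scrambled shRNA libraries. Its scaled level was higher by 0.57 ± 0.16 on the log2 scale (SE, adjusted p = 0.00532, edgeR). Chd4 was also called higher in scrambled shRNA against DMSO libraries (0.63, adjusted p = 0.0093, edgeR). An shRNA acts on finished mRNA, so counts of RNA labelled for 5 min cannot show whether the knockdown worked. Directions drawn from this comparison therefore rest on the label. The 8 stem cell markers were detected in all 8 libraries, with a summed scaled level of 1743 to 1809 CPM in the libraries labelled Chd4 shRNA against 2759 to 2903 CPM in the scrambled shRNA libraries. Of these markers, 6 of 8 were called lower, beside 20.5% of expressed genes. In scrambled shRNA against DMSO libraries, Nanog (0.52) and Zfp42 (0.50) were called higher, Sox2 (-0.62) lower and 5 of the 8 not. These 3 genes are among the 6. The 5 fibroblast, 4 endoderm and 5 neural and mesoderm markers were under the expression filter. Their summed counts in the libraries labelled Chd4 shRNA were between 0.8993 and 1.896 times the background. Of the 5 trophoblast markers 2 were tested. Summed counts of all 5 were 2.004 to 2.378 times the background in the libraries labelled Chd4 shRNA. In the scrambled shRNA libraries they were 4.567 to 5.162 times. In scaled level the trophoblast sum went the other way, at 40.3 and 36.5 CPM against 12.1 and 14.8 CPM. The fibroblast, endoderm and neural and mesoderm sums were also higher in CPM in the libraries labelled Chd4 shRNA. Stem cell markers summed to 64.3 and 57.6 times the background there, against 709.8 and 538 times in the scrambled shRNA libraries. The keratin gene Krt18 was called higher, at 13.8 and 12.1 CPM in the libraries labelled Chd4 shRNA against 4.10 and 4.22 CPM in the scrambled shRNA libraries (1.64 on the log2 scale, adjusted p = 9.155e-07, edgeR), and Krt8 was not called (0.22, adjusted p = 0.384, edgeR). The part of background and of these markers in the results below was not tested.

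Levels are CPM, counts divided by library size in units of 1000000, after TMM scaling among 8272 expressed genes, whose mean count was at least 10-fold above background, so each value is relative to other expressed genes. Differences were tested with edgeR's quasi-likelihood test over those 8272 genes, and calls were made where the p, adjusted by Benjamini-Hochberg, was under 0.05. Per kb of exon, Mdh1 had the highest mean level of the 9 genes in the BRM014 group (49.2 CPM per kb), the scrambled shRNA group (40.2) and the DMSO group (39.7). In the libraries labelled Chd4 shRNA it stood sixth at 13.0 CPM per kb, where Mdh2 was highest at 22.6 and Idh2 next at 21.0 CPM per kb. Idh2 stood second in the other groups as well, at 40.5 CPM per kb in BRM014, 39.2 in DMSO and 31.1 in scrambled shRNA libraries. Ogdh was lowest of the 9 outside the libraries labelled Chd4 shRNA, with mean levels between 5.57 and 6.51 CPM per kb. It reached 8.82 CPM per kb in those libraries, above Fh1 at 8.36 and Idh3a at 5.01 CPM per kb. Neighbours in these orders often lie within their spread. In the BRM014 group, for example, Mdh2 (17.9 ± 0.497), Got2 (17.5 ± 1.36) and Cs (17.4 ± 1.65 CPM per kb, SD, n = 2 each) do not differ beyond it.

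**Figure D1:**
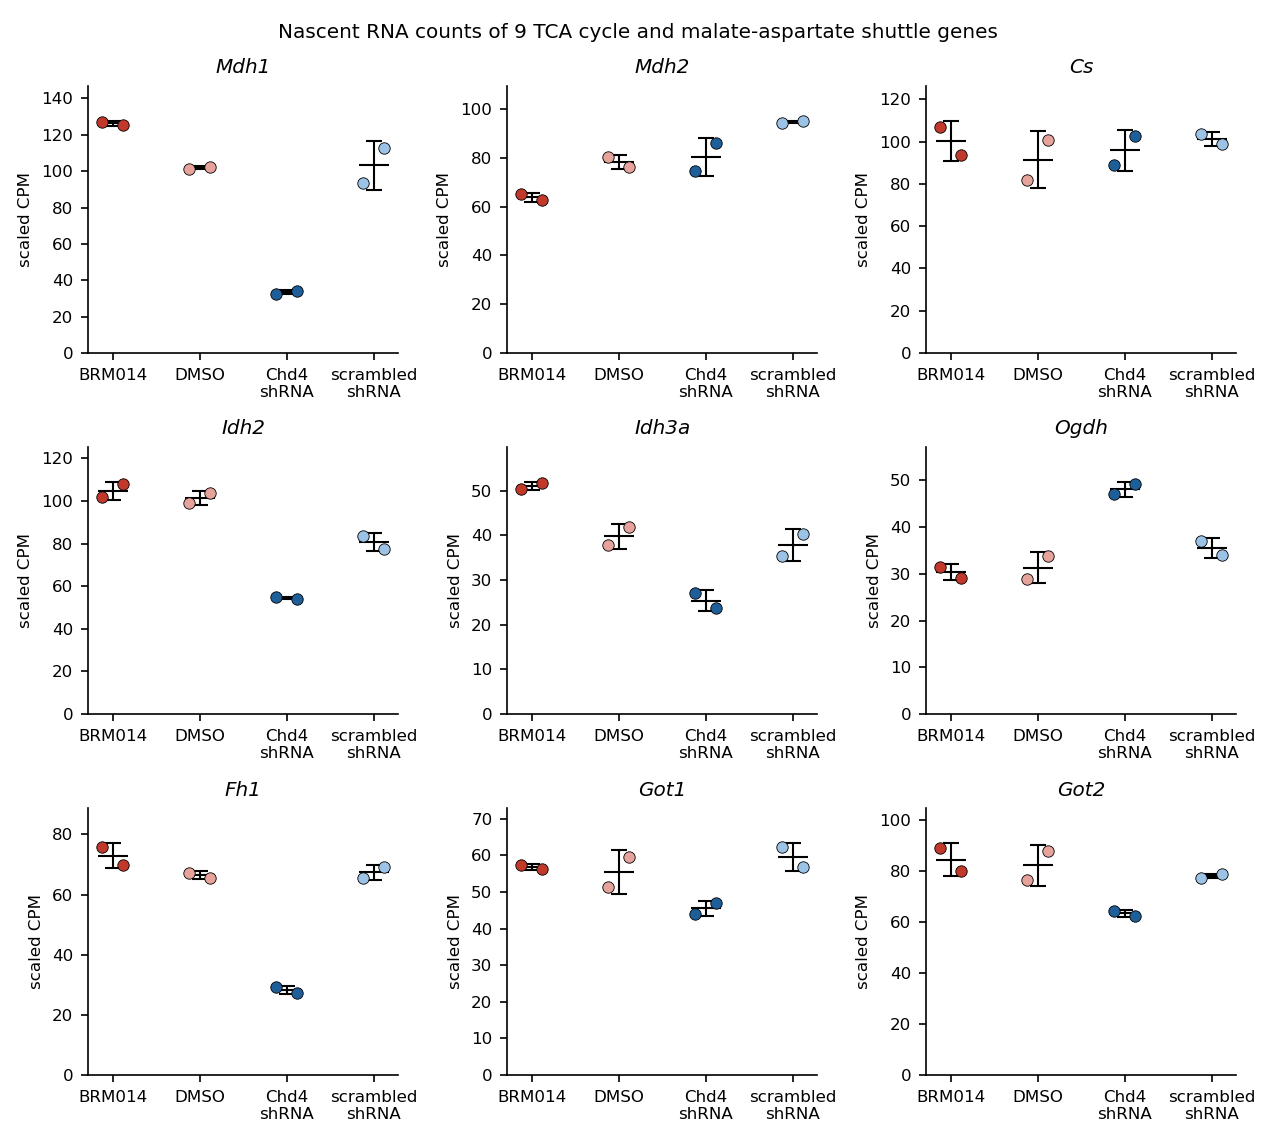
Scaled level (CPM, linear axis from 0) of each of the 9 genes in the 8 libraries. Points are libraries, horizontal lines group means and bars 1 SD (n = 2). Mdh1 and Fh1 sit at 32.5 to 34.2 and 27.4 to 29.3 CPM in the libraries labelled Chd4 shRNA, under every other library. Idh2, Idh3a, Got1 and Got2 also lie under every other library there. Ogdh sits at 47.0 and 49.2 CPM, above every other library.

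BRM014 against DMSO asks what 3 h of BRG1 inhibition does to new transcription. None of the 9 genes was called in either direction, beside 3.12% of expressed genes called higher and 4.63% called lower. At an unadjusted p under 0.05 there were 3 of the 9 (Mdh1, Mdh2 and Idh3a), and DESeq2 called 0 of 9. The 95% intervals of the 9 log2 fold changes lay within -0.56 and 0.62, so changes of that size are not shown to be absent. The median log2 fold change was 0.05 for the 9 genes and 0.01 for all genes tested. That of the 9 genes was 0.143 without DMSO replicate 2, 0.138 without BRM014 replicate 2 and -0.0265, with 6 of 9 below 0, without DMSO replicate 1.

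Idh3a was nearest to the threshold, with 50.4 and 51.7 CPM in BRM014 libraries against 37.8 and 41.8 CPM in DMSO libraries. Both BRM014 libraries were above both DMSO libraries, and the log2 fold change was 0.36 ± 0.13 (SE, adjusted p = 0.0898, edgeR). Without DMSO replicate 2, the log2 fold change was 0.43 and the call was made (adjusted p = 0.0290, edgeR). Mdh1 had 127.3 and 125.4 CPM in BRM014 libraries against 101.4 and 102.4 CPM in DMSO libraries. Its groups did not overlap either, at a log2 fold change of 0.31 ± 0.13 (adjusted p = 0.166, edgeR). Mdh2 had 65.2 and 62.7 CPM in BRM014 libraries against 80.4 and 76.4 CPM in DMSO libraries, with both BRM014 libraries below both DMSO libraries. Its log2 fold change was -0.30 ± 0.13 (adjusted p = 0.183, edgeR). With Fh1, 3 genes had both BRM014 libraries above both controls and 1 gene had both below, beside 25.1% and 23.4% of expressed genes. The log2 fold changes of the other 6 genes lay between -0.05 (Ogdh) and 0.14 (Fh1), and their adjusted p values between 0.599 and 0.925.

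Chd4 shRNA against scrambled shRNA asks what loss of the NuRD ATPase does to new transcription. In the libraries labelled Chd4 shRNA, 5 of the 9 genes were called lower (Mdh1, Fh1, Idh2, Idh3a and Got1) and 1 higher (Ogdh), beside 20.5% of expressed genes called lower and 19.4% called higher. Mdh2, Cs and Got2 were not called. The median log2 fold change was -0.39 for the 9 genes and -0.01 for all genes tested. With background subtracted the median of the 9 genes was -0.235, with 7 below 0, against 8 without subtraction, and at 30-fold above background, where 7 of the 9 were tested, it was -0.203. Counted by library, 7 of 9 genes had both libraries labelled Chd4 shRNA below both scrambled shRNA libraries, beside 37% of expressed genes, and Ogdh had both above, beside 35.8%. These calls are relative to other expressed genes, so a lower value is not by itself less new RNA per cell. Scaled to ERCC RNA, the median of the 9 genes was 0.235 with plain sums and 0.0883 with the 6 abundant ERCC RNAs. It was -0.188 with all 92 ERCC RNAs. A change in cell types and a change in new RNA per cell cannot be told apart in such bulk samples.

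Among the shuttle genes, the cytosolic malate dehydrogenase gene Mdh1 was counted 202 and 210 times in the libraries labelled Chd4 shRNA, against 820 and 988 counts in the scrambled shRNA libraries. On the scaled level these were 32.5 and 34.2 CPM against 93.5 and 112.8 CPM. The groups were far apart, and the log2 fold change was -1.63 ± 0.15 (SE, 95% interval -1.93 to -1.32, adjusted p = 1.02e-08, edgeR). Mdh1 was called lower under all 17 alternatives run for this comparison. Its mitochondrial counterpart Mdh2 had 74.7 and 85.9 CPM in the libraries labelled Chd4 shRNA against 94.4 and 95.1 CPM in the scrambled shRNA libraries. Both were below both controls, but the difference of -0.24 ± 0.13 on the log2 scale was not called (adjusted p = 0.165, edgeR).

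Got1, the cytosolic aspartate aminotransferase gene, had 44.1 and 47.0 CPM in the libraries labelled Chd4 shRNA against 62.3 and 57.0 CPM in the scrambled shRNA libraries. It was called lower, narrowly, at a log2 fold change of -0.39 ± 0.14 (adjusted p = 0.0288, edgeR). The call was lost with DESeq2 (adjusted p = 0.0502), with background subtracted (-0.24, adjusted p = 0.206, edgeR) and without Chd4 shRNA replicate 1 (0.210), Chd4 shRNA replicate 4 (0.0901) or scrambled shRNA replicate 1 (0.187). Got2, the mitochondrial form, had 64.3 and 62.3 CPM in the libraries labelled Chd4 shRNA against 77.3 and 78.5 CPM in the scrambled shRNA libraries, at -0.30 ± 0.14 (adjusted p = 0.0874, edgeR). Its groups did not overlap, yet it was not called. A processed copy named Got2-ps1 was counted 34 and 30 times in the libraries labelled Chd4 shRNA and 76 and 71 times in the scrambled shRNA libraries. Reads shared with it could be split by the counting.

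Among the cycle genes, fumarate hydratase (Fh1) was counted 182 and 168 times in the libraries labelled Chd4 shRNA against 575 and 606 counts in the scrambled shRNA libraries. These are 29.3 and 27.4 CPM against 65.5 and 69.2 CPM. Every library labelled Chd4 shRNA was below every other library of the study. The same held for Mdh1, Idh2, Idh3a, Got1 and Got2, and the share of expressed genes with this order was not computed. The log2 fold change of Fh1 was -1.25 ± 0.14 (95% interval -1.54 to -0.95, adjusted p = 4.57e-07, edgeR).

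Idh2 had 54.8 and 54.0 CPM in the libraries labelled Chd4 shRNA against 83.5 and 77.6 CPM in the scrambled shRNA libraries, at a log2 fold change of -0.57 ± 0.14 (adjusted p = 0.00198, edgeR). Idh3a had 27.1 and 23.8 CPM in the libraries labelled Chd4 shRNA against 35.3 and 40.4 CPM in the scrambled shRNA libraries, also at -0.57 ± 0.15 (adjusted p = 0.00329, edgeR). The groups did not overlap for either gene. The call of Idh3a was lost without Chd4 shRNA replicate 4 (adjusted p = 0.0688, edgeR), and background corresponds to 20.5% and 25.03% of its counts in the libraries labelled Chd4 shRNA.

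Ogdh was the exception, with 47.0 and 49.2 CPM in the libraries labelled Chd4 shRNA against 37.0 and 34.0 CPM in the scrambled shRNA libraries. Both libraries labelled Chd4 shRNA were the highest of all 8, at a log2 fold change of 0.44 ± 0.14 (adjusted p = 0.0138, edgeR). The call was lost without Chd4 shRNA replicate 4 (adjusted p = 0.100) or scrambled shRNA replicate 3 (adjusted p = 0.114, both edgeR), and with TMM scaling over all genes the sign turned (-0.90). Citrate synthase (Cs) had 89.1 and 102.7 CPM in the libraries labelled Chd4 shRNA against 103.6 and 99.1 CPM in the scrambled shRNA libraries. These overlapped, at a log2 fold change of -0.08 ± 0.15 (95% interval -0.38 to 0.22, adjusted p = 0.695, edgeR), and the sign turned with background subtracted (0.07), under the 3 ERCC scalings and without Chd4 shRNA replicate 1 (0.04).

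**Figure D2:**
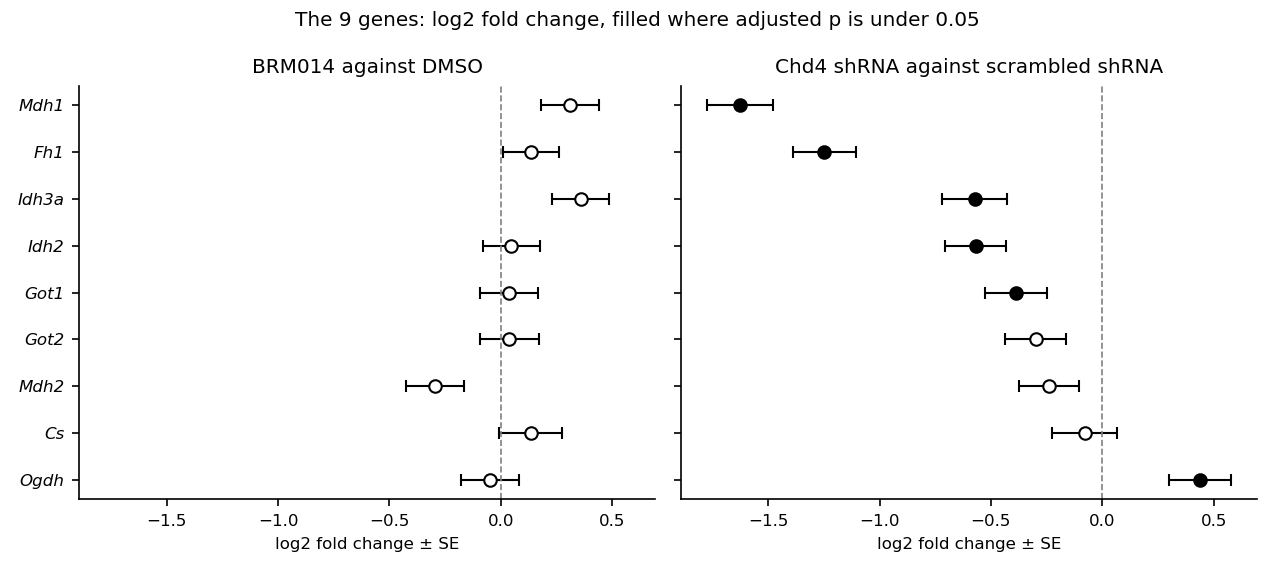
Log2 fold change with SE of each gene for BRM014 against DMSO (left) and for the libraries labelled Chd4 shRNA against scrambled shRNA (right), on 1 linear axis. Filled points were called, and only the right panel holds any, with 5 below 0 and Ogdh above it.

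The scale matters for these values, since ERCC RNA was added per cell number and the libraries labelled Chd4 shRNA hold few ERCC counts. The expressed genes had a median log2 fold change, libraries labelled Chd4 shRNA against scrambled shRNA, of -0.01 in the scaling used here, 0.18 with TMM among all 92 ERCC RNAs, 0.44 with TMM among the 6 abundant ERCC RNAs, 0.59 with plain ERCC sums and -1.34 with TMM over all genes. Relative to that median, the median of the 9 genes lay between -0.35 and -0.38 under all 5 of them, none of which subtracts background. Of the 9 genes, 8 were below 0 in the scaling used here, 7 with all 92 ERCC RNAs, 4 with the 6 abundant ones and 2 with plain ERCC sums. Mdh1 was below 0 and called under each, with -1.01 (plain ERCC sums) as its smallest drop. Fh1 was below 0 under each and lost its call with all 92 ERCC RNAs (-1.06, adjusted p = 0.0767) and with plain ERCC sums (-0.65, adjusted p = 0.0629, both edgeR). Of the other called genes, Idh2 (0.05), Idh3a (0.01) and Got1 (0.23) were above 0 with plain ERCC sums and were called under none of the 3 ERCC scalings. Mdh2 (0.40), Cs (0.56) and Got2 (0.31), which were not called, were also above 0 with plain ERCC sums. Under these 3 scalings 35426 genes were tested, a wider set than the 8272 expressed genes. Of them, 61.2% to 82.3% were called higher and 0.192% to 0.288% lower.

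**Figure D3:**
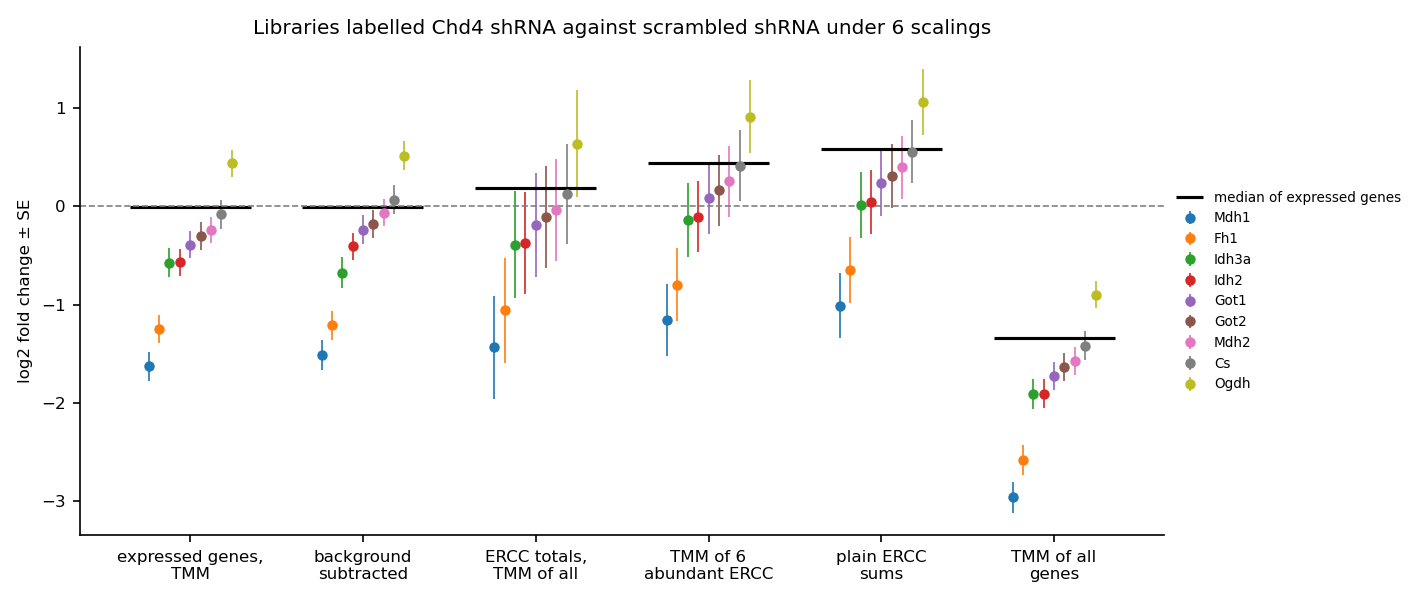
Log2 fold change with SE of the 9 genes, libraries labelled Chd4 shRNA against scrambled shRNA under 6 scalings, with black bars for the median of the expressed genes. Except with background subtracted, the points move up and down together with the median. With it subtracted, the median of the 9 genes is -0.235 (-0.389 without) while that of the expressed genes is -0.00358 (-0.00617 without). Mdh1, Fh1 and Ogdh keep their places at the ends of the order.

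Ratios within a library need no scaling. Pairs of genes were compared in both treatments, 10 comparisons in all, and the pairs were chosen with the values known. Per kb, Mdh1 stood to Mdh2 at 2.711 and 2.778 in BRM014 libraries against 1.749 and 1.86 in DMSO libraries, and at 0.6041 and 0.5529 in the libraries labelled Chd4 shRNA against 1.374 and 1.646 in the scrambled shRNA libraries. The ratio was thus higher with BRM014 in both libraries and lower in both libraries labelled Chd4 shRNA. The mean log2 ratio differed by 0.61 and by -1.38, each with an exact two-sided permutation p of 0.333 (n = 2 against 2), the smallest this design can give, and 0.556 after adjustment over the 10. As a share of the counts of both genes, Mdh1 made up 30.33% (95% Wilson interval 26.96% to 33.93%) and 28.49% (25.35% to 31.86%) in the libraries labelled Chd4 shRNA. It made up 49.76% (47.35% to 52.17%) and 54.26% (51.96% to 56.53%) in the scrambled shRNA libraries. These intervals cover counting error only.

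For the aminotransferases the ratios of the groups overlapped. Got1 stood to Got2 at 1.227 and 1.344 per kb in BRM014 libraries against 1.278 and 1.292 in DMSO libraries, and at 1.305 and 1.432 in the libraries labelled Chd4 shRNA against 1.533 and 1.378 in the scrambled shRNA libraries. The difference was smaller than the spread between libraries in both treatments (exact permutation p = 1 and 0.667, n = 2 against 2, adjusted 1 and 0.833). Of the other 3 pairs, Fh1 to Cs differed by -1.17 and Mdh1 to Cs by -1.54 on the log2 scale in the libraries labelled Chd4 shRNA, and Idh3a to Ogdh by -1.01 there and by 0.40 with BRM014. Each of these 4 had the smallest exact permutation p of 0.333 (n = 2 against 2). With BRM014, Fh1 to Cs (0.00 on the log2 scale) and Mdh1 to Cs (0.17) had exact permutation p of 1 and 0.667 (n = 2 against 2).

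**Figure D4:**
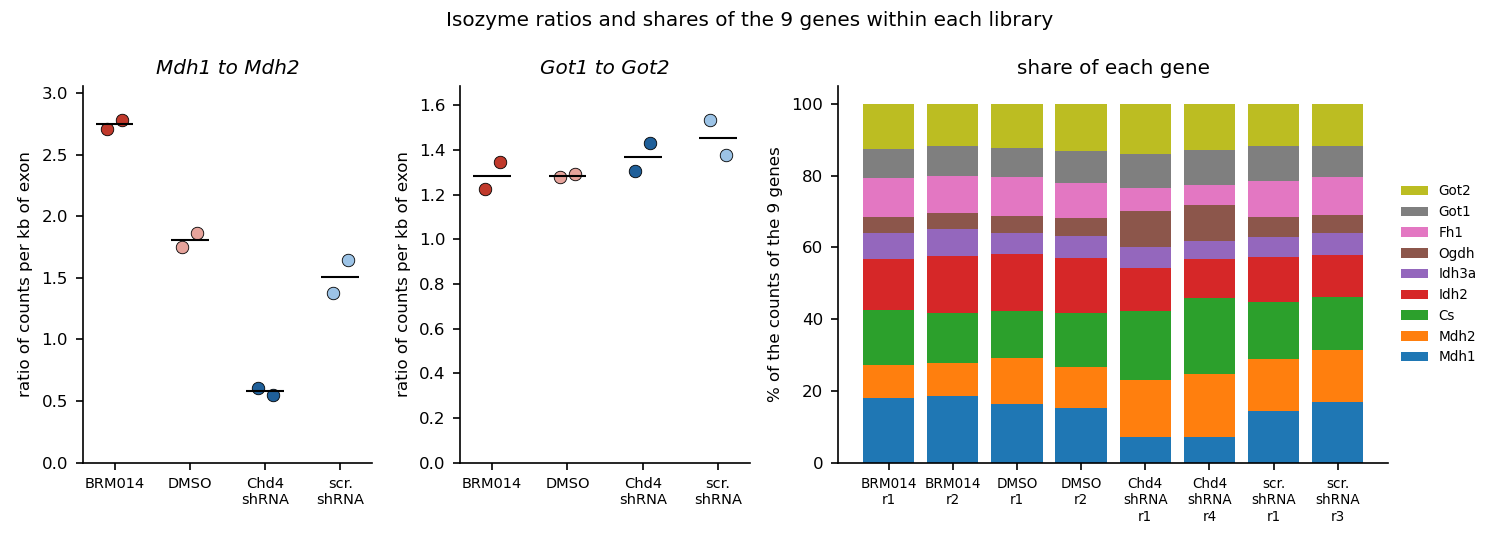
Left and middle, ratio of counts per kb of exon in each library (points) with group means (lines), on linear axes from 0. Right, each gene's share in percent of the counts of the 9 genes in each library, where Mdh1 takes 7.03% and 7.04% in the libraries labelled Chd4 shRNA against 14.3% and 17.0% in the scrambled shRNA libraries, and Ogdh 10.2% and 10.1% against 5.68% and 5.13%.

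The effect in the libraries labelled Chd4 shRNA differed from that of BRM014 in 4 of the 9 genes, all lower (Mdh1, Fh1, Idh3a and Idh2), beside 15.4% of expressed genes lower and 15.4% higher. The difference of both log2 fold changes was -1.94 ± 0.20 for Mdh1 (adjusted p = 1.35e-07), -1.38 ± 0.19 for Fh1 (9.39e-06), -0.93 ± 0.20 for Idh3a (0.000877) and -0.61 ± 0.19 for Idh2 (0.0149), all by edgeR. The last was lost in 4 of the fits that leave out 1 library, with adjusted p between 0.0637 and 0.101, and with background subtracted (0.0742). Mdh1 was called under each of the 3 ERCC scalings and the other 3 genes under none of them. Ogdh differed by 0.49 ± 0.19 and was not called (adjusted p = 0.0538, edgeR). For higher differences the count was 0, and 6 of 9 genes had an unadjusted p under 0.05 in either direction. DESeq2 also called 0 higher.

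Scrambled shRNA against DMSO, which sets the controls side by side and shares their libraries with both comparisons above, called none of the 9 genes, beside 7.11% of expressed genes called higher and 5.96% called lower. The 95% intervals lay within -0.60 and 0.54. At an unadjusted p under 0.05 there were 2 of 9, and DESeq2 called 0. Idh2 had the smallest adjusted p, at -0.33 on the log2 scale (0.0914, edgeR).

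The other genes of the pathway were taken from 6 lists of 47 genes, of which 33 passed the filter. With BRM014, 0 of 33 were called in either direction. Nearest were Sucla2 (0.40, adjusted p = 0.0541) and Dld (0.39, adjusted p = 0.0742, both edgeR), which encode a succinyl-CoA ligase subunit and dihydrolipoamide dehydrogenase, and the median was 0.12. In the libraries labelled Chd4 shRNA, 18 of 33 were called lower, 2 higher and 13 not, beside 20.5% of expressed genes lower and 19.4% higher, with a median of -0.42.

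Of the 12 other cycle subunits, all tested, 7 were called lower in the libraries labelled Chd4 shRNA and 0 higher. Among them were Sdhd (-1.22) and Sdhc (-0.86), the membrane anchors of succinate dehydrogenase, the Idh3 subunits Idh3b (-0.48) and Idh3g (-0.42), and the succinyl-CoA ligase subunits Suclg1 (-0.47) and Sucla2 (-0.46). Sdhd and Sdhc were also called lower in scrambled shRNA against DMSO libraries (-0.53 and -0.48). Sdha (-0.35) and Sdhb (-0.34), the catalytic and iron-sulphur subunits, Dlst (-0.30) and Dld (-0.25), partners of Ogdh, and Suclg2 (0.14) were not called. Of the shuttle carriers, the 2-oxoglutarate carrier Slc25a11 was called lower (-0.85), Slc25a13 was not (-0.24) and Slc25a12 was under the filter. Of the cytosolic counterparts, Idh1 was called lower (-0.76) and Aco1 was not (0.32). All 3 genes of the alternative glycerol phosphate shuttle were under the filter.

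Of the pyruvate entry list, 8 of 14 were tested. Pdhb (-0.80) and Pdha1 (-0.73), subunits of the pyruvate dehydrogenase E1 enzyme, were called lower, while Pdpr (0.90) and Pdp2 (0.61), a regulatory and a catalytic subunit of pyruvate dehydrogenase phosphatases, were called higher. Pdpr was also higher in scrambled shRNA against DMSO libraries (0.48). Background corresponds to 22.8% and 27.5% of Pdp2 counts and 18.7% and 20.6% of Pdpr counts in the libraries labelled Chd4 shRNA. In the scrambled shRNA libraries it corresponds to 4.38% (Pdpr) to 7.91% (Pdp2), and its part in these higher calls was not tested. Of the anaplerosis and export list, 9 of 13 were tested and 7 called lower, among them the citrate carrier Slc25a1 (-1.10), glutamate dehydrogenase Glud1 (-0.96), ATP-citrate lyase Acly (-0.70) and mitochondrial phosphoenolpyruvate carboxykinase Pck2 (-0.50). Acly (0.49, adjusted p = 0.0188) and Pck2 (0.67, adjusted p = 0.00119, both edgeR) were called higher in scrambled shRNA against DMSO libraries. Under the 3 ERCC scalings, where all 47 genes were tested, 0 were called lower, beside 0.192% to 0.288% of the 35426 genes tested.

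**Figure D5:**
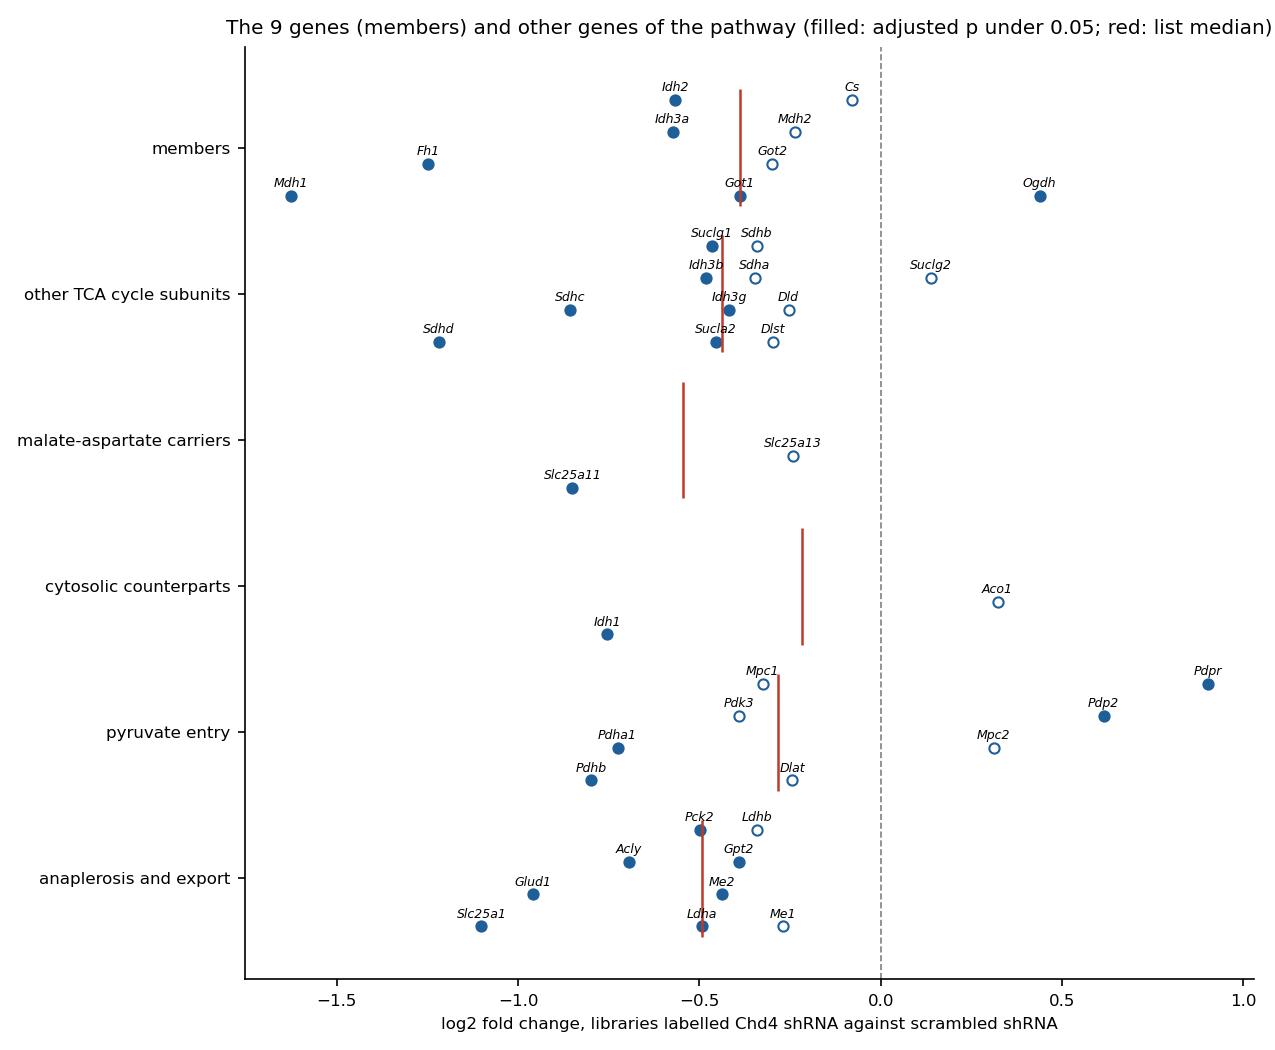
Log2 fold change of the 9 genes (top row) and of the tested genes of 5 lists for the libraries labelled Chd4 shRNA against scrambled shRNA, on a linear axis. Filled points were called, red lines are medians over the tested genes of a list, and height within a row only separates the names. In all, 1 tested gene is not drawn. The 2 points furthest left are Mdh1 (-1.63) and Fh1 (-1.25), and the called points right of 0 are Ogdh (0.44), Pdp2 (0.61) and Pdpr (0.90).

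The genes with profiles most like the mean standardised profile of the 9 genes over the 8 libraries were Ptbp1 (Pearson r = 0.986), Xrcc5 (0.984), Rrm2 (0.984), Ubac1 (0.980) and Usp5 (0.980). This is a description with no test, and the libraries labelled Chd4 shRNA stand apart in that profile, at -0.97 and -0.70, while the other 6 lie between -0.18 and 0.49. The 9 genes did not all follow it. With the mean of the other members, Pearson r was -0.793 for Ogdh, -0.210 for Mdh2 and 0.302 for Cs. For the rest it lay between 0.710 (Idh2) and 0.960 (Got1). Across all 8272 expressed genes, which are not independent replicates, the log2 fold change for the libraries labelled Chd4 shRNA had a Spearman rho of 0.0646 with exonic length and -0.108 with level, and over those with coordinates 0.0814 with genomic span. Rows that overlap a member were small beside it, with a mean of 130 counts for Gm45760 against 929.4 for Got2 and 57.38 for Gm45203 against 1084 for Idh2. Which strand was counted is not given in the sources used here, so reads of Got2 and of the opposite-strand Gm45760 cannot be told apart.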

How the data were processed

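Nascent RNA was measured in 8 libraries, 2 in each of 4 groups. The authors deposited raw read counts for each gene and for 92 ERCC RNAs. Per the submitters' processing notes, the tools were Trim Galore 0.6.4, STAR 2.7.1a, featureCounts and edgeR 3.32.1, with build mm10. The strand counted and the treatment of reads with several alignments are not given in the sources used here. Not analysed here were 40 samples of chromatin immunoprecipitation.

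Groups come from the labels. Columns r4 (Chd4 shRNA) and r3 (scrambled shRNA) match no title and were placed by group name. The members, gene lists and pair ratios were chosen with earlier results of these data known. The genes named were the 9 members, up to 4 genes a pathway list with the smallest p in each treatment comparison (cycle subunits and carriers in full, except 1 gene that is not reported here) and the 5 genes most alike in profile. Marker lists covered stem cells, fibroblasts, endoderm, neural and mesoderm cells and trophoblast.

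One model of all 8 libraries was fitted in edgeR 4.0.16 (R 4.3.3) and tested with the quasi-likelihood F test, using 8272 genes with a mean count at least 10-fold above the background of 1434 receptor genes over 5330.3 kb of exon, with TMM scaling among them. SEs come from the F statistic. Gene counts of 6982354 to 17128981 a library set the precision. Profiles used log2(CPM + 0.5). With 2 libraries against 2, an exact permutation test cannot go under 0.333. The alternatives were other scalings, filters, background subtraction, DESeq2 1.42.0, robust and separate fits, a replicate block, a fold threshold and each library left out. An identity of proteins was planned and not run.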

Additional observations from a re-analysis of the deposited data

How the results depend on the processing

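Each group had 2 libraries, and those labelled Chd4 shRNA had the lowest gene counts and the lowest ERCC counts. How far this limits what can be called was not tested. Of 685 alternative values of single genes, 560 kept their direction and side of the threshold, 29 gained a call, 33 lost one and 63 turned sign, 55 of these called neither before nor after. The cause of the changes below was not tested, except that scalings move all genes together.

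Sign turns, as log2 values, in the libraries labelled Chd4 shRNA were those of Mdh2 (0.398), Cs (0.559), Idh2 (0.045), Idh3a (0.014), Got1 (0.23) and Got2 (0.31) with plain ERCC sums and of Mdh2 (0.256), Cs (0.415), Got1 (0.088) and Got2 (0.162) with the 6 abundant ERCC RNAs. Cs also turned with all 92 (0.126), at 30-fold above background (0.108) and with background subtracted (0.0697), and Ogdh with TMM over all genes (-0.90). With BRM014, Ogdh turned with all 92 (0.0475) and with TMM over all genes (0.0117). In the difference of both effects, plain ERCC sums turned Cs (0.447), Idh2 (0.0052), Got1 (0.213) and Got2 (0.286), the 6 abundant ones Cs (0.284), Got1 (0.0464) and Got2 (0.12), and TMM over all genes Mdh2 (-1.33) and Ogdh (-0.91). Mdh2 also turned with at least 50 counts (-0.392) and at 3-fold above background (-0.352).

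In scrambled shRNA against DMSO, all 92 ERCC RNAs turned Mdh1 (-0.175), Cs (-0.101), Ogdh (-0.0538), Fh1 (-0.162) and Got1 (-0.132), and TMM over all genes Mdh1 (-0.133), Fh1 (-0.128) and Got1 (-0.0411). The 6 abundant ones turned Idh2 (0.122), Idh3a (0.378) and Got2 (0.373), as did plain sums (0.0938, 0.353 and 0.346). At least 50 counts turned Mdh1 (-0.0617) and Fh1 (-0.0582), 3-fold above background Mdh1 (-0.0535) and Fh1 (-0.0508), and the replicate block Fh1 (-0.019).

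Leaving out each library in turn gave log2 ranges that cross 0 with BRM014 for Cs (-0.0265 to 0.292), Idh2 (-0.00241 to 0.0868), Ogdh (-0.172 to 0.0663), Got1 (-0.0854 to 0.15) and Got2 (-0.0756 to 0.143), and in the libraries labelled Chd4 shRNA for Cs (-0.186 to 0.0424). They crossed 0 for the difference in Mdh2 (-0.0464 to 0.188), and for scrambled shRNA against DMSO in Mdh1 (-0.116 to 0.128), Cs (-0.00402 to 0.309), Idh3a (-0.164 to 0.00219), Fh1 (-0.00894 to 0.0421), Got1 (-0.0111 to 0.217) and Got2 (-0.183 to 0.0306).

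Of the 9 genes, 5 were called lower in the libraries labelled Chd4 shRNA. There were 1 with all 92 ERCC RNAs, 1 with plain ERCC sums, 2 with the 6 abundant ones, 9 with TMM over all genes, 8 with at least 50 counts, 8 at 3-fold above background, 3 at 30-fold, where 7 of the 9 were tested, and 2 where the log2 fold change also had to reach 1 in size. The 1 higher call (Ogdh) became 0 with all 92 ERCC RNAs, TMM over all genes, at least 50 counts, 3-fold above background and the fold threshold. At 30-fold, Ogdh and Idh3a were the genes not tested, in any comparison. Of the 8272 genes tested for the libraries labelled Chd4 shRNA, 20.5% were called lower and 19.4% higher. The sets tested differed between the alternatives. They held 35426 genes with the ERCC scalings and with TMM over all genes, and 54064 with no filter. They held 14455 with at least 50 counts, 17664 at 3-fold and 3726 at 30-fold, while the fold threshold kept the 8272. Called lower and higher were 0.192% and 61.2% with all 92 ERCC RNAs, 0.223% and 82.3% with plain sums, 0.288% and 76.4% with the 6 abundant ones, 31.4% and 32.4% with TMM over all genes, 3.36% and 58.6% with no filter, 29.8% and 33.1% with at least 50 counts, 22.8% and 22.3% at 3-fold, 22.2% and 23.9% at 30-fold, and 3.41% and 3.94% with the fold threshold. For the difference of both effects, 4 lower calls became 1, 1 and 1 with the ERCC scalings, 9 with TMM over all genes, 7 with at least 50 counts, 7 at 3-fold, 2 at 30-fold and 2 with the fold threshold. The 0 higher became 1 (Ogdh) with plain ERCC sums, no filter, background subtracted and only genes that pass filterByExpr. For the difference, 0.048% to 0.155% of all genes were lower and 35.7% to 69.9% higher with the ERCC scalings, and 27.4% lower and 18.5% higher with TMM over all genes. With at least 50 counts 25.8% were lower and 30.2% higher, at 3-fold 19.1% and 18.1%, at 30-fold 17.0% and 20.1%, and with the fold threshold 4.69% and 6.47%. With no filter 2.47% were lower and 41.6% higher, with background subtracted 15.1% and 16.5%, and with filterByExpr genes 14.5% and 16.4%. In scrambled shRNA against DMSO, 0 lower became 1 (Idh2) with TMM over all genes (2.57% of all genes) and with at least 50 counts (6.30%).

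Of the pathway lists, 2 higher and 18 lower calls in the libraries labelled Chd4 shRNA became 18 and 0 with plain ERCC sums, 12 and 0 with the 6 abundant ERCC RNAs, 3 and 0 with all 92, 1 and 43 with TMM over all genes, 4 and 29 with at least 50 counts, 0 and 11 at 30-fold, and 0 and 2 with the fold threshold. There were 10 higher with no filter and 29 lower at 3-fold. The shares of all genes called under each of these alternatives are those given above for the same comparison. With plain ERCC sums, for example, 82.3% of all genes tested were higher and 0.223% lower. With BRM014, 0 higher became 1 with TMM over all genes (1.17% of all genes), 2 with at least 50 counts (3.12%) and 1 at 3-fold (2.85%).

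Leaving out each library in turn gave 0 to 1 higher with BRM014 (1 without DMSO replicate 2), and 0 to 1 higher and 3 to 5 lower in the libraries labelled Chd4 shRNA. The lower count was 3 without Chd4 shRNA replicate 4, and the higher count 0 without that library or scrambled shRNA replicate 3. It gave 0 to 1 higher and 3 to 5 lower for the difference. For the pathway lists it gave 0 to 6 higher with BRM014 (6 without DMSO replicate 2), and 1 to 2 higher and 11 to 15 lower in the libraries labelled Chd4 shRNA (11 without Chd4 shRNA replicate 1, 1 higher without scrambled shRNA replicate 3). A lone library was assumed to vary like the other groups.

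The numbers did not pair the BRM014 and DMSO libraries (r = -0.223 over 8272 genes). With the replicate block, 304 genes were higher and 450 lower with BRM014, against 258 and 383 without it, and 0 of the 9 genes were called. Crossed numbers, an alternative chosen after seeing the data like the filterByExpr one, gave 371 higher and 456 lower, with 3 higher in the pathway lists and 1 higher of the 9 for the difference. No paired analysis was possible for the shRNA groups because their columns share 1 number.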
